A study of Homo sapiens with 6 samples.

Results

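The class I antigen presentation genes examined here are 9 genes of the 32364 in the table of Kasumi-1 expression values. They were chosen by name. HLA-B, HLA-C, HLA-E and HLA-F encode class I heavy chains, B2M their light chain, TAP1, TAP2 and TAPBP the peptide loading machinery, and NLRC5 a transcriptional activator of the class I genes. The choice was made because HLA-B and HLA-C had been higher with I13 while B2M and HLA-E had not, so the difference between I13 and control in these 9 genes is given as a description without a test. Kasumi-1 is an established acute myeloid leukemia cell line of the M2 subtype, with the t(8;21) translocation that fuses RUNX1 (AML1) to RUNX1T1 (ETO). I13 is an inhibitor of histone deacetylases. Messenger RNA was sequenced in 3 libraries per group. The I13 group had been exposed to the compound for 48 h at a dose of 0.5 µM, and the control group to its solvent DMSO. All 6 libraries come from this single cell line. The study calls its sequencing results representative of independent experiments, but the labels do not say whether the libraries of a group came from separate cultures, so the spread between them may be technical.

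A class I molecule is a heavy chain bound to β2-microglobulin and a short peptide. Peptides cut by the proteasome in the cytosol are carried into the endoplasmic reticulum by the TAP1-TAP2 transporter, and tapasin (TAPBP) holds empty class I molecules next to it until a peptide fits. The loaded complex goes to the cell surface, where CD8 T cells read it, and natural killer cells respond when it is missing. HLA-B and HLA-C are classical heavy chains that vary widely between people, whereas HLA-E and HLA-F are nonclassical, and HLA-E mainly shows peptides from the leader sequences of other class I chains to natural killer cells. Class I promoters are known to hold an interferon response element, an NF-kappaB site and a module with a CRE-like element and a CCAAT box on which NLRC5 acts.

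Values are FPKM, fragments on a gene per kilobase of its exons, scaled to the total of the library. The recovered depth was between 15281052 and 17221345 fragments per library. Kasumi-1 markers were present in every library, with RUNX1T1 between 12.5 and 14.4 FPKM, KIT between 196 and 236 FPKM and CD34 between 38.3 and 45.9 FPKM. Of 21 markers of T, B, erythroid, fibroblast, epithelial, endothelial and dendritic cells, 17 were matched in the table and 15 of these had a mean under 1 FPKM. The others were EPCAM, between 20.8 and 26.5 FPKM, and CD79A, between 1.24 and 2.55 FPKM. The T cell marker sum was between 0.333 and 0.438 FPKM in the control libraries and between 0.179 and 0.207 FPKM in the I13 libraries. This sum rests on 2 to 6 fragments per library for CD3D, 1 to 5 for CD3E and 0 to 1 for CD2. At such counts the difference cannot be told from counting noise, and its part in the results was not tested. The 6 Kasumi-1 markers had log2 differences in both directions, with 0.35 for ANPEP, 0.20 for CD33, 0.14 for CD34, -0.029 for RUNX1T1, -0.063 for KIT and -0.12 for MPO. ANPEP and CD33, myeloid surface proteins, had every I13 library above the control libraries, and the groups overlapped for the other 4. Over all 18726 genes tested, 4.88% had every I13 library above every control library and 4.64% had every I13 library below. The Benjamini-Hochberg adjusted p from limma was 0.54 for ANPEP and 0.89 for CD33. Control replicate 3 and I13 replicate 2 stood apart from the other libraries. Over 4133 genes with a mean of at least 10 FPKM, their deviations from their group means had a correlation across genes of 0.51, while the other 8 combinations of a control and an I13 library had values between -0.39 and 0.32. No label names a batch, so members are also given within this pair and within the other 4 libraries.

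The promoters of HLA-B and HLA-C, which were higher with I13, and of B2M and TAPBP, which were not, are shown so that the letters of the known elements can be compared between them. They are the 250 bases before the RefSeq transcription start on build GRCh38.p14, read 5′ to 3′ on the strand of the gene. The promoter table held 7 of the 9 members, and HLA-E and NLRC5 had no entry. Capitals mark matches on either strand to the interferon response element core GAAANNGAA, to the letters GTGAAAC of the form this element is known to have in classical heavy chain genes, to the NF-kappaB letters GGGATTNCC or GGACTTNCC, to the CRE half-site TGACG and to CCAAT. Matches that overlap form 1 run of capitals.
HLA-B, chr6:31357180-31357429, minus strand: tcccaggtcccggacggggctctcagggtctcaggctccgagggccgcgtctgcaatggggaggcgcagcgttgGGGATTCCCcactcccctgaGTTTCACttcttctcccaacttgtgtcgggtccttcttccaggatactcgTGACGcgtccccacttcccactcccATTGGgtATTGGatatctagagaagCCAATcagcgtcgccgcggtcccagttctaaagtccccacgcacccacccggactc
HLA-C, chr6:31272093-31272342, minus strand: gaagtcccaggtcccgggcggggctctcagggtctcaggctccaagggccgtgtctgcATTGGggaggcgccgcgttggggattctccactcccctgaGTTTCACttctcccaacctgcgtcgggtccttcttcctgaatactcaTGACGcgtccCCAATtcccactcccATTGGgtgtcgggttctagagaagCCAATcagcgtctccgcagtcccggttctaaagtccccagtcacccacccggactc
B2M, chr15:44711267-44711516, plus strand: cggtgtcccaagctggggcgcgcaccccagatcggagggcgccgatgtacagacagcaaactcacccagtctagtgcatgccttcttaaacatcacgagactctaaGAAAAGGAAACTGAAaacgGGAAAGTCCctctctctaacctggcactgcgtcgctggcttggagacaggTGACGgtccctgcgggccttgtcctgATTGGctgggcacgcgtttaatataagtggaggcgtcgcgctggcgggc
TAPBP, chr6:33314079-33314328, minus strand: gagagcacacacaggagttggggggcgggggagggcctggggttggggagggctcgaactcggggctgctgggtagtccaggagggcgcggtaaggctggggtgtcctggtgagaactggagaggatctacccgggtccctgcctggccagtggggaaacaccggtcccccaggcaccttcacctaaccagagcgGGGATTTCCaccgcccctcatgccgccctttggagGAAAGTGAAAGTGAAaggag

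The HLA-B and HLA-C promoters matched each other at 226 of 254 aligned columns (89.0%). HLA-B matched the HLA-F promoter at 80.4% and the B2M promoter at 49.5%. B2M and TAPBP, which belong to different gene families, had an identity of 49.0% under the same alignment. HLA-B and HLA-C both had a CRE half-site, from -106 to -102 and from -105 to -101 relative to the start, and both had a CCAAT box from -56 to -52. Another CCAAT box, on the opposite strand, lay from -81 to -77 in HLA-B and from -80 to -76 in HLA-C. The NF-kappaB letters matched in HLA-B from -176 to -168 and were not in the HLA-C window. The interferon response element had different letters in these genes. Its heavy chain form GTGAAAC matched on the opposite strand in HLA-B from -156 to -150 and in HLA-C from -152 to -146. None of the other 5 members with an entry had a match. The letters GTGAAAC were added after a first search, so this contrast is a description and not a test. The core GAAANNGAA matched in B2M, TAP1, TAP2, TAPBP and HLA-F. TAP1 had 2 entries with different starts. Its matches lay in entry 1, and entry 2 had no match to any of the letters searched. In B2M the core matched in an overlapping pair from -144 to -130, next to NF-kappaB letters from -125 to -117. TAPBP had the same kind of overlapping pair from -20 to -6 and NF-kappaB letters from -55 to -47. Of 35116 promoters in the table, cut to the same length, the core GAAANNGAA was found in 6.88%, GTGAAAC in 1.98%, the NF-kappaB letters in 1.89%, the CRE half-site in 21.2% and CCAAT in 32.01%. A match is a description of the letters and does not show that a factor binds there.

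**Figure D1:**
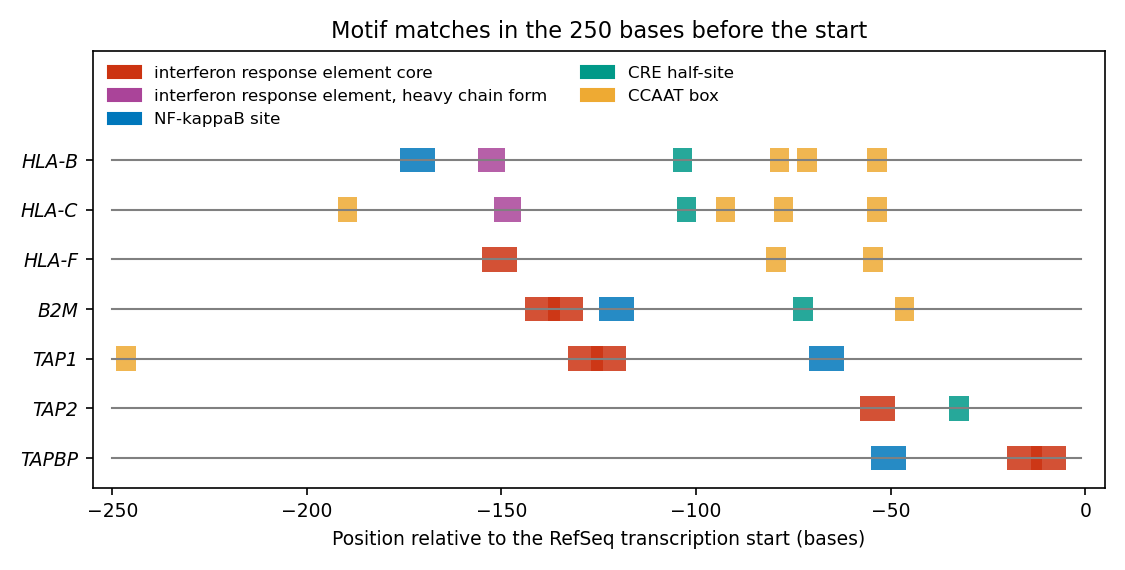
Motif matches in the 250 bases before the RefSeq start of 7 members, with the distance from the start in bases on the x axis. Colored blocks are matches on either strand. TAP1 is drawn from entry 1, and its entry 2, which had no match, is not drawn. HLA-B and HLA-C share the CRE half-site near -105 and CCAAT boxes near -80 and at -56. Both have the heavy chain form of the interferon response element near -150, while its other form lies in HLA-F, B2M, TAP1, TAP2 and TAPBP.

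HLA-B, which presents peptides to CD8 T cells (ENSG00000234745, minus strand of chromosome 6 from 31269491 to 31357188 in GENCODE release 29 on GRCh38), was expressed at 13.6, 12.3 and 12.2 FPKM in control replicates 1, 2 and 3. In I13 replicates 1, 2 and 3 its level was 24.6, 18.4 and 17.2 FPKM. Every I13 library lay above every control library, and I13 replicate 1 was the highest. The values rest on 712, 644 and 615 fragments in the control libraries and on 1194, 935 and 802 fragments in the I13 libraries. Control libraries averaged 12.7 ± 0.763 FPKM (SD, n = 3) and I13 libraries 20.1 ± 3.97 FPKM (SD, n = 3), a ratio of 1.58. The difference on the log2(FPKM + 0.1) scale was 0.64 with a standard error of 0.13. In bulk libraries, more cells that express a gene and more RNA per cell cannot be told apart. The coefficient of variation of HLA-B was 6.02% among the control libraries and 19.8% among the I13 libraries, where the counting of fragments alone gives about 3.50%. Without I13 replicate 1 the log2 difference was 0.49.

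HLA-C, the other classical heavy chain of the set and also a ligand of killer cell inhibitory receptors (ENSG00000204525, minus strand of chromosome 6 from 31268749 to 31272130), was expressed at 6.95, 6.997 and 8.45 FPKM in control replicates 1, 2 and 3. Its level was 11.6, 9.35 and 9.32 FPKM in I13 replicates 1, 2 and 3. The groups did not overlap here either, and the highest library was again I13 replicate 1. The highest control library, replicate 3, came within 1 FPKM of the lowest I13 library. Control libraries averaged 7.47 ± 0.854 FPKM (SD, n = 3) and I13 libraries 10.1 ± 1.31 FPKM (SD, n = 3), a ratio of 1.35, and the log2 difference was 0.43 with a standard error of 0.12. Within control replicate 3 and I13 replicate 2 the log2 difference of HLA-C was 0.14, and within the other 4 libraries it was 0.57. For HLA-B the same values were 0.59 and 0.67.
Of the 18726 genes tested, 4.88% had every I13 library above every control library and 4.64% had every I13 library below. Among the 8 members in the test, 2 had I13 above and 0 had I13 below. This count was fixed by the choice of members and nothing is read from it.

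HLA-E, the nonclassical heavy chain recognized by the CD94/NKG2A receptor (ENSG00000204592, plus strand of chromosome 6 from 30489467 to 30494205), was expressed at 80.6, 74.2 and 81.8 FPKM in control replicates 1, 2 and 3. Its level was 77.9, 78.4 and 70.7 FPKM in I13 replicates 1, 2 and 3. The groups overlapped, and the lowest library was I13 replicate 3. With 3216 to 4128 fragments per library its log2 difference was -0.060 with a standard error of 0.061. The value was -0.062 within the pair and -0.059 within the other 4 libraries.
HLA-F, a nonclassical heavy chain (ENSG00000204642, plus strand of chromosome 6 from 29722775 to 29738528), was listed at 0 in all 6 libraries. A count of 0 allows up to 3 fragments per library, which would be between 0.0401 and 0.0452 FPKM, and this limit covers counting error only. It does not cover fragments that may have been assigned to genes overlapping HLA-F. None of 12 genes that cells in general use, such as ACTB and GAPDH, was at 0 in any library. HLA-F was therefore in no fit, and 8 of the 9 members were in the test.

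B2M, the invariant light chain (ENSG00000166710, plus strand of chromosome 15 from 44711487 to 44718877), was expressed at 109, 109 and 105 FPKM in control replicates 1, 2 and 3. It was at 119, 104 and 113 FPKM in I13 replicates 1, 2 and 3. The I13 libraries lay on both sides of the control libraries, with I13 replicate 2 the lowest and I13 replicate 1 the highest. Between 10505 and 11511 fragments per library stood behind these values, and the log2 difference was 0.050 with a standard error of 0.058. The spread between replicates, 2.13% in control and 6.71% in I13 libraries, was larger than the 0.953% that counting gives, so depth did not limit this value.

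**Figure D2:**
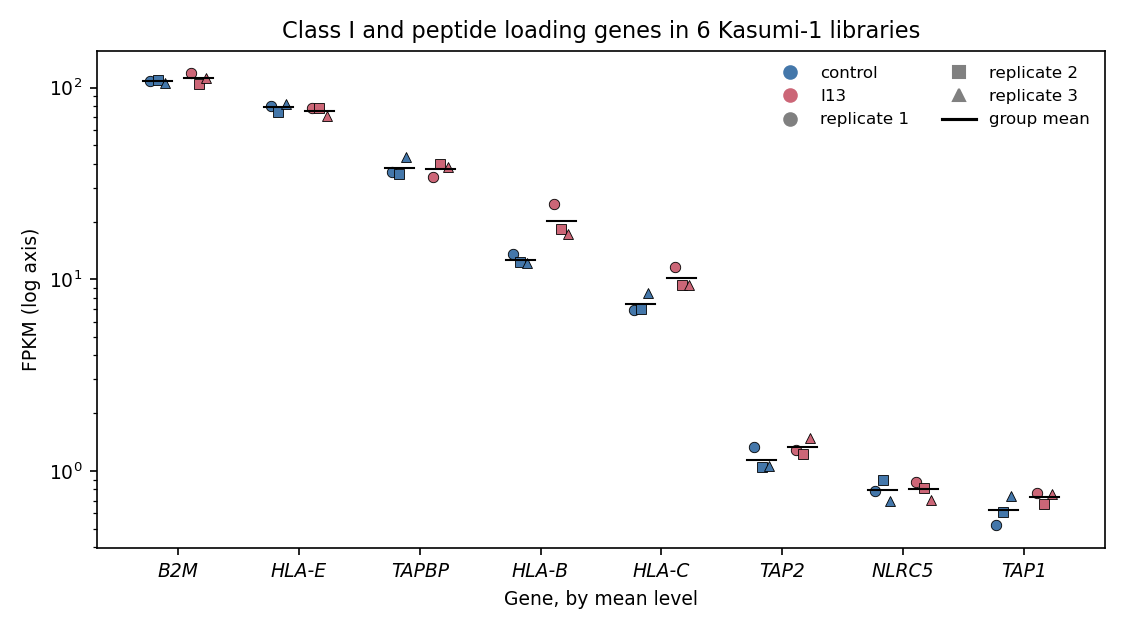
FPKM on a log axis of 8 members in each of the 6 libraries, ordered by mean level. Symbols are replicates, colors are groups and lines are group means. HLA-B and HLA-C have all I13 points above all control points, from 12.2 to 24.6 FPKM and from 6.95 to 11.6 FPKM, and the groups overlap for the other 6 genes.

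The transporter genes were expressed at a low level. TAP1 (ENSG00000168394, minus strand of chromosome 6 from 32845209 to 32853978) was at 0.520, 0.611 and 0.738 FPKM in control replicates 1, 2 and 3 and at 0.768, 0.668 and 0.758 FPKM in I13 replicates 1, 2 and 3. The groups overlapped because control replicate 3 lay above I13 replicate 2. Only 41 to 56 fragments per library stood behind these values, and counting alone gives a variation of 14.0%. The log2 difference was 0.21 with a standard error of 0.20, and it was -0.13 within the pair and 0.38 within the other 4 libraries.
TAP2 (ENSG00000204267, minus strand of chromosome 6 from 32821833 to 32838780) was at 1.33, 1.05 and 1.06 FPKM in control replicates 1, 2 and 3. In I13 replicates 1, 2 and 3 it was at 1.29, 1.23 and 1.48 FPKM. The groups overlapped, with control replicate 1 above 2 of the I13 libraries. From 112 to 146 fragments per library, the log2 difference was 0.21 with a standard error of 0.16. Both 0 and the difference seen in HLA-C lie less than 2 standard errors from the TAP1 and TAP2 values.

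TAPBP, which encodes the chaperone tapasin (ENSG00000231925, minus strand of chromosome 6 from 33299694 to 33314387), was at 36.3, 35.3 and 43.2 FPKM in control replicates 1, 2 and 3. Its level was 34.2, 39.8 and 38.6 FPKM in I13 replicates 1, 2 and 3. The highest library was control replicate 3 and the lowest I13 replicate 1, and the log2 difference was -0.025 with a standard error of 0.093. With the group difference taken out, TAPBP was 0.20 higher on the log2 scale in the library pair than in the other 4 libraries, and the other members in the test differed by between -0.15 and 0.084.
NLRC5, the class I transactivator (ENSG00000140853, plus strand of chromosome 16 from 56989485 to 57083531), was at 0.783, 0.899 and 0.692 FPKM in control replicates 1, 2 and 3. It was at 0.877, 0.818 and 0.708 FPKM in I13 replicates 1, 2 and 3. The groups overlapped over nearly their whole range. The log2 difference was 0.018 with a standard error of 0.18, from 134 to 191 fragments per library, and it was 0.21 within the pair and -0.080 within the other 4 libraries.

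**Figure D3:**
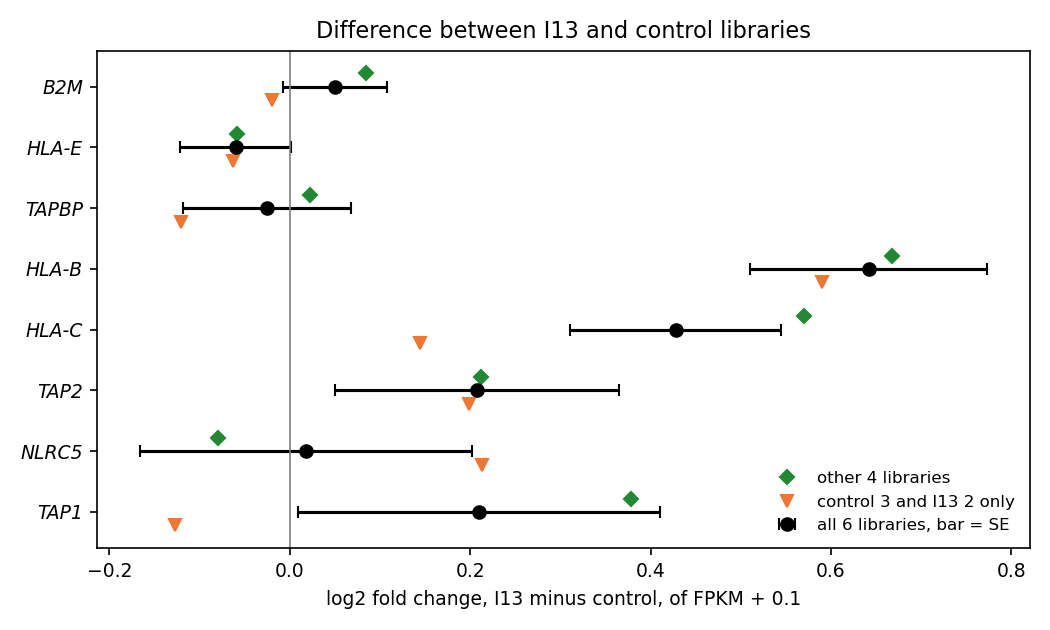
Log2 difference between I13 and control of FPKM + 0.1 on the x axis for 8 members, as the fit over all 6 libraries with its standard error (black), within the other 4 libraries (diamonds) and within control replicate 3 and I13 replicate 2 (triangles). HLA-B is at 0.64 and HLA-C at 0.43, and B2M, HLA-E, TAPBP and NLRC5 lie between -0.060 and 0.050.

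The order of the levels per exon length was B2M, HLA-E, TAPBP, HLA-B, HLA-C, TAP2, NLRC5 and TAP1. The ranges over the 6 libraries did not overlap between neighbors in this order except for NLRC5, from 0.692 to 0.899 FPKM, and TAP1, from 0.520 to 0.768 FPKM. B2M was at the 98.5 percentile of the genes tested by mean FPKM, and HLA-E was at the 97.7 percentile. HLA-B stood at the 86.1 percentile and HLA-C at the 75.5 percentile, while TAP1, at the 32.8 percentile, was the lowest. The exon length behind the FPKM of B2M was 6089 bases and its longest annotated coding sequence has 357 bases, and for HLA-E these lengths were 2975 and 1074 bases. Mean levels over all 6 libraries were 1874 for B2M, 214 for HLA-E, 45.8 for HLA-B and 19.7 for HLA-C when the same fragments were taken per kilobase of coding sequence. The order of the 8 means was the same on both scales.

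The 4 heavy chain genes were added up per library to set them against their light chain. HLA-B and HLA-C together came to 20.5, 19.3 and 20.6 FPKM in control replicates 1, 2 and 3 and to 36.2, 27.7 and 26.5 FPKM in I13 replicates 1, 2 and 3. The lowest I13 value exceeded the highest control value, and the share of HLA-B and HLA-C in the heavy chain sum was separated in the same way. That share was 20.4% ± 0.266 (SD, n = 3) in control cells and 28.4% ± 2.96 (SD, n = 3) with I13. The ratio of HLA-B and HLA-C to B2M was 0.187 ± 0.00991 (SD, n = 3) in control cells and 0.269 ± 0.0349 (SD, n = 3) with I13. With HLA-E and HLA-F included, the ratio was 0.918 ± 0.0604 (SD, n = 3) and 0.948 ± 0.0808 (SD, n = 3), and the groups overlapped. HLA-E made up most of the sum, so the whole heavy chain pool differed by 0.044 on the log2 scale relative to B2M while its classical part differed by 0.52. Per coding length the ratio of the whole pool to B2M was 0.147 ± 0.00959 in control cells and 0.152 ± 0.0130 with I13 (SD, n = 3), so its size depends on the length used and its difference between groups does not.

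**Figure D4:**
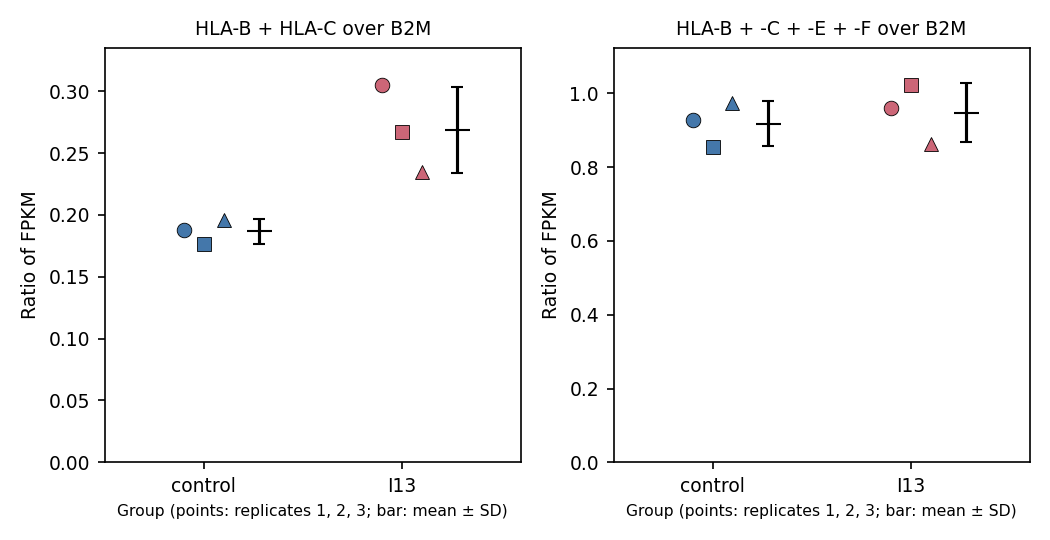
Ratio of the FPKM of HLA-B and HLA-C (left) and of all 4 heavy chain genes (right) to that of B2M in each library, with mean and SD beside the points and axes from 0. The left ratio is 0.187 in control and 0.269 in I13 libraries without overlap, and the right ratio is 0.918 and 0.948 with overlap.

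HLA genes resemble each other, and a fragment can match more than 1 of them. Of the distinct words of 50 bases in the annotated HLA-B transcripts, 2.48% also occurred in HLA-C, 0.0918% in HLA-F and 0.0306% in HLA-E. At 100 bases no word was shared between any of the members. A larger share lay in overlapping annotation. For HLA-B, 443 of 3440 words of 100 bases (12.9%) occurred in AL671883.2, a pseudogene on the opposite strand whose exons share 542 bases with it. HLA-B and HLA-C share 35 exon bases on the same strand, since an annotated HLA-B transcript reaches into HLA-C. TAP2 shares 2064 of its 6390 exon bases with the gene AL669918.1 on the same strand. For HLA-F, 749 of 4903 words of 100 bases (15.3%) occurred in other genes. For TAP1, 362 of 4987 (7.26%) occurred in PSMB8-AS1 on the opposite strand. How the authors assigned such fragments is not given in the sources used here. HLA-B, HLA-C, HLA-F, TAP1 and TAP2 are therefore uncertain in this respect, which includes the 0 of HLA-F. Sequence variants of the HLA alleles in Kasumi-1 were not examined.

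The other genes of the pathway were taken from 5 lists that hold none of the members. Of 57 listed genes 56 were matched in the table and 53 were tested. At an unadjusted p under 0.05 from limma, 1 of the 53 was higher with I13 and 0 were lower, which is 1.89%. Over all 18726 genes tested this share was 5.14%, with 478 genes (2.55%) higher and 485 (2.59%) lower. At the Benjamini-Hochberg adjusted p with a log2 fold change of at least 0.58, limma called 0% of all genes, and voom, run on fragments recovered from the FPKM, called 5 genes, or 0.0362%. The median log2 fold change of the 53 genes was 0.003, beside 0.006 for all genes tested and 0.13 for the 8 members. Fold changes were above 0 for 27 and below 0 for 26 of the genes.

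The loading chaperones and folding factors of the endoplasmic reticulum were the most abundant list. None of its 10 tested genes had an unadjusted p under 0.05, and the log2 fold changes ran from -0.029 to 0.14. CALR, whose product calreticulin is part of the loading complex, was between 1664 and 1754 FPKM in the control libraries and between 1640 and 1820 FPKM in the I13 libraries. HSPA5, the chaperone BiP, had a log2 fold change of 0.056 with a standard error of 0.051. PDIA3, the disulfide isomerase that pairs with tapasin, was close to it with 0.040 and a standard error of 0.043.
Of the 9 peptide trimming enzymes 0 passed. ERAP1, which trims peptides to their final length, had a log2 fold change of -0.002 with a standard error of 0.069. The cytosolic peptidases LAP3 and BLMH, the most abundant of this list, were at 0.017 and 0.009.
The 7 genes of the immunoproteasome and its activator also had 0 genes past the unadjusted p. PSME1 and PSME3, activator subunits, had log2 fold changes of -0.003 and 0.095. The catalytic subunit PSMB8 was between 2.77 and 5.08 FPKM, highest in I13 replicate 2, and PSMB9, whose gene lies head to head with TAP1, was between 0.0613 and 0.256 FPKM from 3 to 12 fragments per library.

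Among 19 transcription factors and chromatin regulators of class I genes 0 passed, with a median log2 fold change of -0.026. RFX5, a subunit of the factor that recruits NLRC5 to these promoters, was at -0.010 with a standard error of 0.052, and NFYA, which binds CCAAT, was at -0.026 with a standard error of 0.042. EZH2, the catalytic subunit of the Polycomb complex, was at 0.076 with a standard error of 0.080. IRF1, a transcription factor of the interferon response, had a log2 fold change of -0.047 with a standard error of 0.14. IRF9, the most negative of the list with -0.41, had only 2 to 16 fragments per library and a standard error of 0.48.
Of 8 tested genes with a class I fold outside the classical set, ULBP2 alone had an unadjusted p under 0.05. ULBP2, a ligand of the activating receptor NKG2D, was at 1.205, 0.734 and 1.119 FPKM in control replicates 1, 2 and 3 and at 1.58, 1.29 and 1.504 FPKM in I13 replicates 1, 2 and 3. Each I13 library was above each control library, from 17 to 34 fragments. The log2 fold change was 0.50 with a standard error of 0.21, and the p was 0.0458 unadjusted and 0.947 adjusted from limma. Under 12 of 18 alternatives the unadjusted p was not under 0.05, with p-values up to 0.124. FCGRT, the neonatal Fc receptor that also pairs with B2M, had a log2 fold change of -0.11 with a standard error of 0.087, and MICB, another NKG2D ligand, was at -0.058 with a standard error of 0.079.

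**Figure D5:**
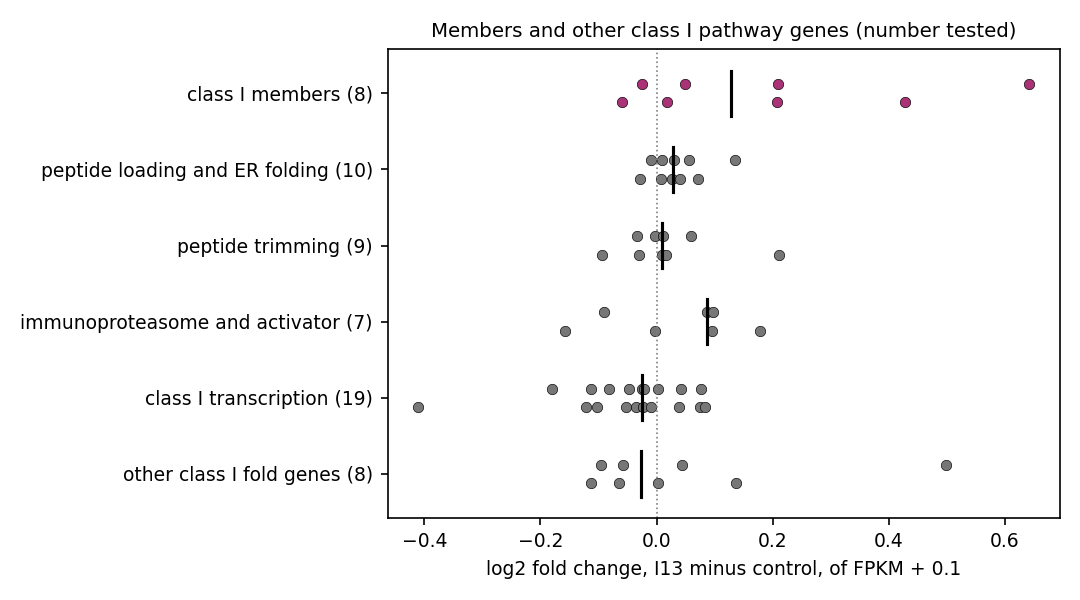
Log2 difference between I13 and control of FPKM + 0.1 on the x axis, with 1 point per gene, for the 8 members in the test and for 5 lists of other class I pathway genes, and the median as a black line. The member medians and points are descriptive. The list medians lie between -0.027 and 0.087, and ULBP2 at 0.50 is the right-most point among the lists.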

How the data were processed

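The authors deposited 1 table of FPKM values for 32364 Ensembl genes in 6 libraries. The labels name a TruSeq Stranded mRNA kit, and the submitters' processing notes name Trimmomatic, HISAT2, Cufflinks, HTSeq and build hg38, without versions or roles. The annotation and the strand setting were not given in the sources used here. Genes were named with GENCODE release 29. With its exon lengths, 25773 of 27002 genes above 0 (95.4%) gave whole fragments within a tolerance of 0.01. HLA-F counts as whole at 0. For B2M and TAP1 the length was instead solved as the integer that made all 6 values whole fragments. Coding lengths are the longest coding sequences of the same annotation. Counting limits cover counting error only.

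Differences were computed with limma 3.58.1 in R 4.3.3 on log2(FPKM + 0.1) with a variance trend, two-sided, over 18726 genes whose mean reached 0.1 FPKM and adjusted by the Benjamini-Hochberg method. Fold changes on this scale understate those of low genes. Scripts were tested on simulated data. The members and lists were chosen with earlier results of these data known. Named genes were the members, list genes with an unadjusted p under 0.05, the most abundant list genes, genes with a pattern most like HLA-B, and markers. Some list genes were named after their values were seen (PDIA3, ERAP1, PSMB8, PSMB9, RFX5, IRF1, IRF9, MICA). Alternatives were other pseudocounts, filters, scalings, variance settings, left-out libraries, a replicate block, the library pair and voom. Promoters came from RefSeq and were aligned with Biopython 1.88, and the motif letters were shortened, and GTGAAAC added, after a first search.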

Additional observations from a re-analysis of the deposited data

How the results depend on the processing

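The members' log2 differences moved by less than the spread between replicates under every alternative except the comparison of control replicate 3 with I13 replicate 2 alone, where HLA-C was at 0.14, TAP1 at -0.13 and NLRC5 at 0.21. With each library left out in turn, HLA-B was between 0.49 and 0.74 and HLA-C between 0.32 and 0.52. The signs of TAPBP and NLRC5 depended on the libraries used. Genes called at the adjusted p were 0, but 9 without a variance trend, 5 by voom and between 0 and 2 with 1 library left out (2 without I13 replicate 1). A minimum mean of 1 FPKM left 280 higher and 302 lower genes at the unadjusted p, by fewer genes tested. A term for the library pair gave 734 lower genes, and the other 4 libraries alone gave 806 higher genes. The cause was not tested.

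For the pathway lists, the count of higher genes was 0 with no filter, with a minimum mean of 1 FPKM, under quantile normalization, without a trend and when the library pair was a term, and it was between 0 and 2 with a library left out. The count of lower genes was between 0 and 1 with a library left out, 1 with a term for the library pair (RELA) and 1 within the other 4 libraries (PSMB10). In that subset and by voom, ERAP2 took the place of ULBP2 as the 1 higher gene. Replicate numbers did not pair the libraries. The deviations of same-numbered libraries had correlations of 0.32, -0.38 and -0.30, and under a replicate block 447 genes were higher and 415 lower at the unadjusted p, 1 of them in the lists. The spread within groups, as chi-square per degree of freedom with 1 for counting noise, was 0.903 for TAP1, whose precision is limited by depth, and 1.87 for TAP2 and 2.30 for NLRC5, which varied more than counting gives.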

Other observations

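The genes whose pattern over the 6 libraries was most like that of HLA-B were named by the root mean square difference of their log2 values after centering each gene on its mean, among 6708 other genes with a mean of at least 5 FPKM. They were LTBP4, a binding protein of latent TGF-β, with 0.126, RHEX, a regulator of erythroid cell expansion, with 0.158, HLA-C with 0.176, ITM2A, a membrane protein gene, with 0.178, and HNRNPA1P48, a pseudogene, with 0.189. HLA-C was thus the third of 6708 genes, while B2M ranked 783, HLA-E 4091 and TAPBP 5828. This likeness includes the difference between I13 and control for which HLA-B and HLA-C were chosen, and 4 of the 5 genes lie outside chromosome 6. The ratio of HLA-B to HLA-C was 1.95, 1.76 and 1.44 in control replicates 1, 2 and 3 and 2.12, 1.96 and 1.85 in I13 replicates 1, 2 and 3, so the libraries overlapped.

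The genes next to HLA-B and HLA-C were counted within 250000 bases on either side, from 31018749 to 31607188 on chromosome 6 of GRCh38, a window chosen after the values were seen. The table held 31 such genes and 16 of them were tested. Limma gave an unadjusted p under 0.05 for 0 of them in either direction, with a median log2 fold change of -0.011. Over all 18726 genes tested this share was 5.14%, so with 16 genes a count of 0 lies near it and nothing is read from it. The log2 fold changes ran from -1.63 to 0.45, in genes with a mean of 0.476 and 0.388 FPKM. MICA, an NKG2D ligand in this window, was at 3.67 ± 0.400 FPKM (SD, n = 3) in control and 4.03 ± 0.338 FPKM (SD, n = 3) in I13 libraries.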
